A study of Neurospora crassa OR74A with 2 samples.

Results

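Heterotrimeric G proteins carry signals from receptors in the plasma membrane to enzymes inside the cell. A Gα subunit, released from its Gβγ partner when it binds GTP, can act on adenylyl cyclase, which makes cAMP. cAMP binds the regulatory subunit of protein kinase A (PKA) and frees the catalytic subunit. In the filamentous ascomycete Neurospora crassa this pathway acts in hyphal growth, in conidiation (the making of asexual spores) and in mating, where Gα and Gβγ subunits serve the response to pheromone. The transcripts described here are the 9 genes of its core, taken by locus identifier, of 8564 genes with a value. They are the Gα genes gna-1 (NCU06493), gna-2 (NCU06729) and gna-3 (NCU05206), the Gβ gene gnb-1 (NCU00440), the Gγ gene gng-1 (NCU00041), ric8 (NCU02788), the adenylyl cyclase gene cr-1 (NCU08377), the PKA catalytic subunit gene pkac-1 (NCU06240) and the PKA regulatory subunit gene mcb (NCU01166). All 9 were above 0 in both libraries, as were 7517 of the 8564 genes. All 9 also reached 10 RPKM in the higher library, as did 4831 of the 8564.

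RNA was sequenced from the wild type, FGSC 2489, and from Δpp-1, a strain deleted for pp-1, the gene of a transcription factor related to Ste12 of yeast. Cultures were started at 1000000 conidia per ml and incubated for 5 h at 30 °C, a stage at which germinated conidia can fuse. There was 1 library per strain, and how many cultures or isolates went into each was not given in the sources used here. No difference below therefore has a replicate check, and no test between strains was possible. In such bulk samples, more cells of a type and more RNA per cell cannot be told apart. The spacing of the low values gave a total of 7870000 reads in the wild-type library and 9360000 in the other, if the smallest step between values is 1 read. No gene stood at 1 step, and if 1 read were worth 2 steps the totals would be 3940000 and 4680000. Intervals below use the first reading. The other was tried only for the ratios of the 9 genes between strains, and calls among these that end under it are named. The pp-1 transcript stood at 83.8 RPKM in the wild-type library and 1.69 RPKM in Δpp-1, on the side the label calls for.

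Levels are given in RPKM, the reads of a gene divided by its length in kilobases and by the library total in units of 1000000 reads, which allows levels of different genes to be compared per length. The ratio between strains is Δpp-1 over wild type, and its 95% interval covers counting error only. The share of all genes with an interval that excludes 0 was not counted. For counts past a threshold, the log2 fold was taken after adding 1 RPKM to both values, and a gene had to reach 10 RPKM in the library where it was higher. The median of these 4831 genes had a log2 fold of -0.28 in the deposited values, so a gene at 0 lay above the median gene.

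The 5 genes of G protein subunits all stood higher in Δpp-1, while of the 3 genes of the cAMP and PKA arm cr-1 and mcb were close to their wild-type level and pkac-1 was lower in the values as deposited. Summed over the subunits, the level was 391 RPKM in the wild-type library and 612 RPKM in Δpp-1, a ratio of 1.57. Summed over cr-1, pkac-1 and mcb, it was 97.1 and 93.1 RPKM, a ratio of 0.959. The direction of this last ratio depends on the scaling, since it was 1.15 with each library scaled by its median, 1.14 by its upper quartile and 1.27 with equal sums, where the subunits had 1.87, 1.87 and 2.07. One member, gna-2, was at least 2-fold higher and 0 were 2-fold lower, and gna-1 and gnb-1 were also past 1.5-fold. Among the 4831 genes, 2.73% were higher by at least 2-fold, 6.98% lower by as much and 6.11% higher by at least 1.5-fold. The call of gna-2 was lost with a pseudocount of 5 RPKM, and the count of members past 2-fold was 3 with both libraries scaled to a sum of 1000000. That scaling also moved the share of lower genes among all those past 2-fold from 71.9% to 40.6%. Of the 9 members 8 had a log2 fold above 0, against 26.2% of the 4831 genes.

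**Figure D1:**
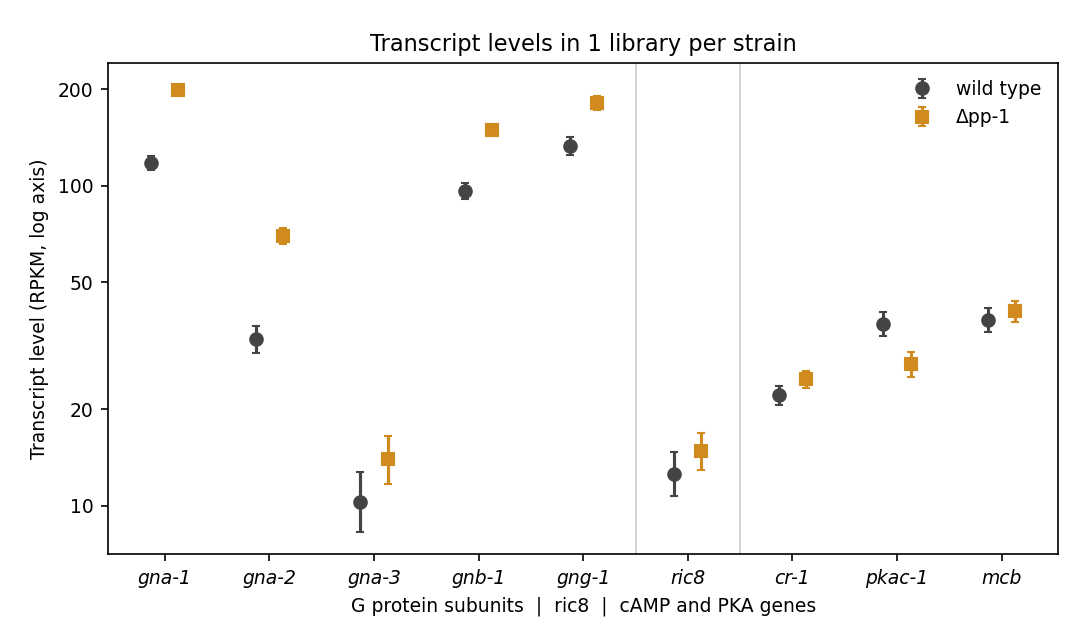
Transcript level in RPKM on a log axis for the 9 genes in the wild-type library (circles) and the Δpp-1 library (squares). Bars are 95% counting intervals, and all 5 subunit genes lie higher in Δpp-1, whereas pkac-1 lies lower, at 36.9 and 27.7 RPKM.

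Of the 9 genes, the Gα genes gna-2 and gna-1 differed most between the libraries. The gene gna-1 encodes a Gα subunit of the inhibitory family that is needed for normal hyphal extension and female fertility. Its transcript stood at 118 RPKM in the wild-type library and 199 RPKM in Δpp-1, a ratio of 1.68. The log2 ratio was 0.75 with a counting interval from 0.66 to 0.84, wholly above 0. Its log2 fold rounded to 1 with median or upper-quartile scaling and was 1.15 with equal sums, so its place below 2-fold depends on the scaling. In Δpp-1 its value was the highest of the 9. Its rank among all genes moved from 641 to 321, a measure that does not depend on how the libraries are scaled.

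The gene gna-2 encodes a Gα subunit whose known roles overlap in part with those of GNA-1. It stood at 33.1 RPKM in the wild-type library and 69.7 RPKM in Δpp-1, a ratio of 2.1. The log2 ratio was 1.07, with an interval from 0.91 to 1.24 that includes 1, so whether the difference was above or below 2-fold was within counting error. This was the largest difference among the 9 genes, at position 125 from the top of the 4831 log2 folds. Its rank by level went from 2081 to 968.

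The gene gna-3 encodes a Gα subunit related to the stimulatory family of animals, which keeps conidiation in check and is needed for normal adenylyl cyclase levels. With ric8, from which its level was not separated beyond counting error, it was at the low end of the 9 in both libraries, at 10.3 RPKM in the wild-type library and 14 RPKM in Δpp-1. Both values were whole numbers of reads, 87 and 140, for a length of 1071 bases (or a multiple of these). With those reads the log2 ratio of 0.44 had an interval from 0.04 to 0.84, the widest of the 9. With 2 steps to a read the interval ran from -0.15 to 1 and included 0, so a difference in gna-3 is not firm at this depth.

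The Gβ and Gγ subunits form one functional unit. The Gβ gene gnb-1 stood at 96.4 RPKM in the wild-type library and 149 RPKM in Δpp-1, with a log2 ratio of 0.63 and an interval from 0.53 to 0.73. The Gγ gene gng-1 stood at 133 and 181 RPKM, with a log2 ratio of 0.44 and an interval from 0.32 to 0.56. Both were higher in Δpp-1 beyond counting error. The gene gng-1 had the highest level of the 9 in the wild type and came next after gna-1 in Δpp-1.

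The gene ric8 encodes a cytosolic guanine nucleotide exchange factor that activates GNA-1 and GNA-3. It stood at 12.6 RPKM in the wild-type library and 14.8 RPKM in Δpp-1. With 1 step taken as 1 read, these values corresponded to 157 and 220 reads for a length of 1585 bases. The log2 ratio of 0.24 had an interval from -0.07 to 0.54 with these reads. A difference in ric8 was thus not detectable at this depth in the values as deposited, although the whole interval lay above the median gene, whose log2 ratio was -0.29.

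In the cAMP arm, the adenylyl cyclase gene cr-1 (crisp) stood at 22.1 RPKM in the wild-type library and 24.9 RPKM in Δpp-1. Its log2 ratio was 0.17, with an interval from 0.04 to 0.31 that became -0.02 to 0.36, including 0, with 2 steps to a read. The regulatory subunit gene mcb, named for a mutant that forms conidia by budding (microcycle blastoconidiation), stood at 38.1 and 40.5 RPKM. Its log2 ratio was 0.09, with an interval from -0.07 to 0.25 that includes 0. Both genes were within 1.5-fold between the libraries, although both whole intervals lay above the median gene, at -0.29. With both libraries scaled to the same sum, the log2 folds of cr-1 and mcb were 0.56 and 0.48. In assembly NC12 of RefSeq, mcb shares 1006 bases with its neighbour NCU01167 (17.9 and 14.7 RPKM), and reads of the 2 genes may not have been told apart there.

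The catalytic subunit gene pkac-1, which encodes the main PKA catalytic subunit, was the only one of the 9 with a lower value in Δpp-1. It stood at 36.9 RPKM in the wild-type library and 27.7 RPKM in Δpp-1, a ratio of 0.75. The log2 ratio was -0.41, with an interval from -0.60 to -0.23. That interval includes the median gene, so pkac-1 was lower in the deposited values and not distinguishable from the typical gene. With both libraries scaled to the same sum its log2 fold was -0.01. By rank it moved from 1893 to 2088, whereas the other 8 genes moved up. How many of all genes moved up in rank was not counted.

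**Figure D2:**
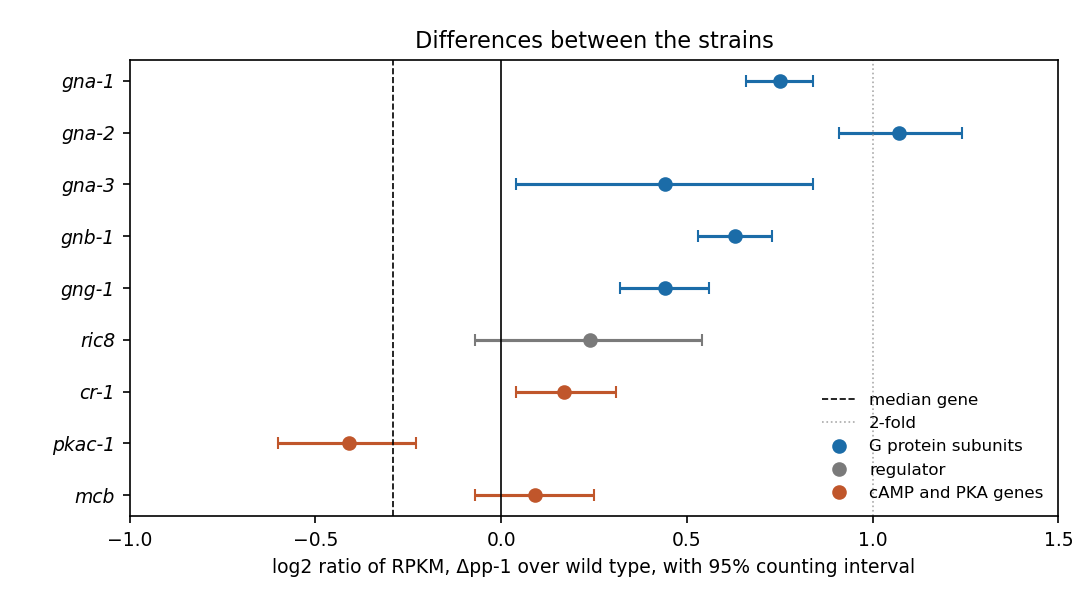
Log2 ratio of RPKM, Δpp-1 over wild type, for each gene with its 95% counting interval, coloured by role. The solid line marks equal values, the dashed line the median gene at -0.29 and the dotted line 2-fold, and the interval of gna-2 is the only one that reaches 2-fold.

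Set against each other, the 5 subunit genes and these 3 genes of the cAMP and PKA arm did not overlap. Log2 folds of the 5 subunit genes ran from 0.40 for gna-3 to 1.05 for gna-2, with a median of 0.62. Those of the 3 genes of the cAMP and PKA arm ran from -0.40 for pkac-1 to 0.17 for cr-1, with a median of 0.09. In all 15 pairs of 1 subunit gene and 1 gene of the arm, the subunit gene had the higher log2 fold, and ric8, at 0.22, lay between the groups. The medians differed by 0.53. Relative to the median gene, the subunits had a median of 0.90 and the arm one of 0.36. This describes 8 genes in 2 libraries. The difference between the groups was not tested, and the gap from cr-1 to gna-3 was within the counting interval of gna-3. Of the 4831 genes, 9.38% had a log2 fold at or above that of gna-3. The separation holds for these 3 genes of the arm only. Outside them, the cAMP phosphodiesterase gene acon-2 had a log2 fold of 1.18, above all 5 subunit genes, and pkac-2 one of -0.37.

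**Figure D3:**
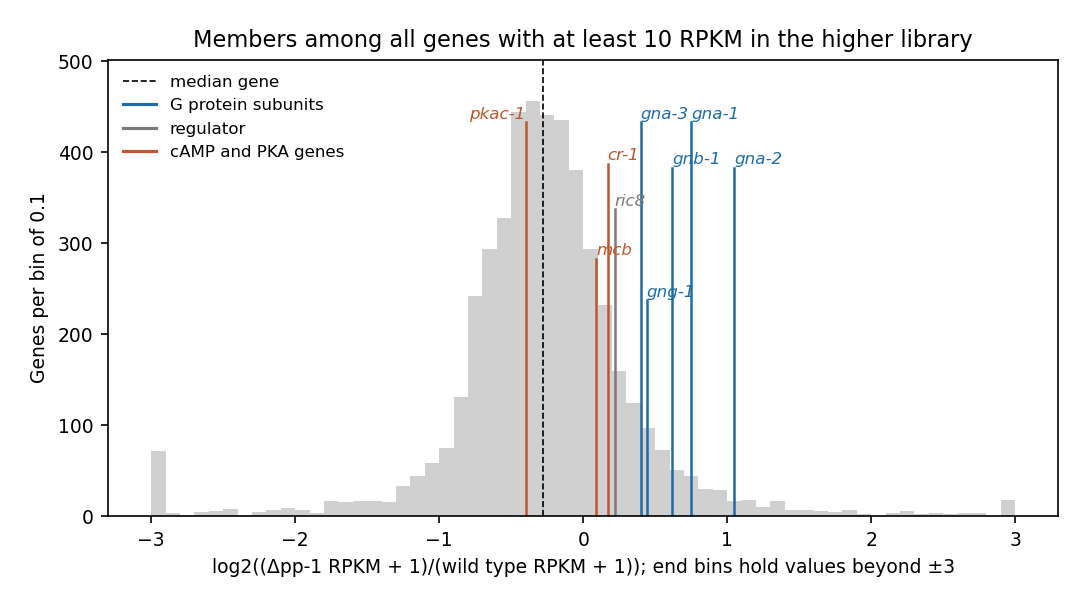
Number of genes per bin of log2 fold for the 4831 genes that reached 10 RPKM in either library, with the 9 genes drawn as coloured lines whose heights carry no value. The 5 subunit genes lie to the right of the other 4, from 0.40 to 1.05, and pkac-1 lies at -0.40, near the median gene at -0.28.

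Ratios between transcripts of the same library do not depend on how the libraries are scaled to each other. Summed subunit level over summed level of the cAMP and PKA arm was 4.03 in the wild type and 6.58 in Δpp-1. The log2 change of this ratio was 0.71, with a counting interval from 0.60 to 0.82. Summed Gα level over ric8 was 12.8 in the wild type and 19.1 in Δpp-1, so that there was less ric8 transcript per Gα transcript in Δpp-1.

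Within the heterotrimer the proportions moved less. Summed Gα level over gnb-1 was 1.67 in the wild type and 1.90 in Δpp-1, and gnb-1 over gng-1 was 0.725 and 0.823. Each had a log2 change of 0.18, with intervals from 0.05 to 0.30 and from 0.03 to 0.34. Both came close to 0, and neither change is firm at this depth.

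Among the Gα transcripts, gna-1 made up 73.1% of the summed level of 161 RPKM in the wild-type library and 70.4% of 282 RPKM in Δpp-1. The share of gna-2 was 20.5% and 24.7%, and that of gna-3 was 6.39% and 4.94%. The order of the Gα genes was the same in both libraries, with gna-2 taking a larger share in Δpp-1. The ratio of gna-1 to gna-2 was 3.56 and 2.85, with a log2 change of -0.32 and an interval from -0.50 to -0.14. The ratio of gna-2 to gna-3 was 3.21 and 4.99, with a log2 change of 0.64 and an interval from 0.22 to 1.06.

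In PKA, the catalytic subunit gene pkac-1 and the regulatory subunit gene mcb were nearly level in the wild type, with pkac-1 at 0.970 of mcb. The second catalytic gene, pkac-2 (wild type 18.8, Δpp-1 14.3 RPKM), was not added to pkac-1. Near equality of all catalytic and regulatory transcript in the wild type therefore does not follow. In Δpp-1 pkac-1 was at 0.684 of mcb. The log2 change of this ratio was -0.50, with an interval from -0.75 to -0.26. The ratio of cr-1 to pkac-1 was 0.597 and 0.897, with a log2 change of 0.59 (0.36 to 0.81), and that of cr-1 to mcb was 0.579 and 0.613, with a change of 0.08 (-0.12 to 0.29). In Δpp-1 pkac-1 thus stood lower relative to both other genes of the arm, and the ratio of those to each other differed by less than counting error.

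**Figure D4:**
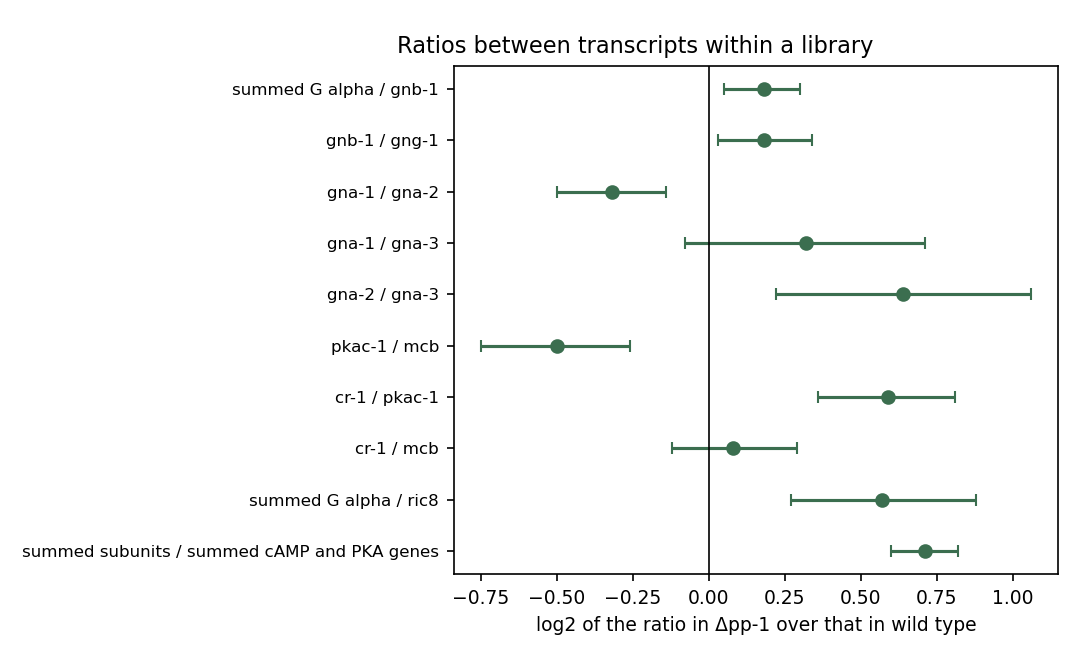
Log2 of each transcript ratio in Δpp-1 over the same ratio in the wild type, with 95% counting intervals. The ratio of summed subunits to the summed cAMP and PKA arm lies at 0.71, and the ratio of pkac-1 to mcb lies at -0.50.

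The order of levels shows the place of gna-2 most plainly. In the wild type it ran gng-1, gna-1, gnb-1, mcb, pkac-1, gna-2, cr-1, ric8 and gna-3. The counting intervals overlapped for the neighbours mcb and pkac-1, pkac-1 and gna-2, and ric8 and gna-3, so these pairs are not ordered. Intervals of levels were not tried with 2 steps to a read, where they would be wider and more pairs may overlap. In Δpp-1 the order was gna-1, gng-1, gnb-1, gna-2, mcb, pkac-1, cr-1, ric8 and gna-3, with overlap for pkac-1 and cr-1 and for ric8 and gna-3. In the wild type gna-2, at 33.1 RPKM, lay with the PKA subunit genes, and in Δpp-1, at 69.7 RPKM, its interval of 65.7 to 74 RPKM lay above that of mcb, 37.6 to 43.6 RPKM.

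Other genes of the pathway were taken from a list of 68 symbols, of which 13 matched a gene with a value, so most of the list is not covered here. Of the 8 that reached 10 RPKM in either library, 1 was higher and 1 lower by at least 2-fold, where the shares over all genes were 2.73% and 6.98%. The higher one was acon-2 (NCU00478), for a cAMP phosphodiesterase, the enzyme class that breaks down cAMP. It stood at 7.30 RPKM in the wild-type library and 17.8 RPKM in Δpp-1, a log2 fold of 1.18. The lower one was gpr-5 (NCU00300), for a predicted G protein coupled receptor, at 14.1 and 4.42 RPKM, a log2 fold of -1.48.

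The second PKA catalytic subunit gene, pkac-2 (NCU00682), stood at 18.8 RPKM in the wild-type library and 14.3 RPKM in Δpp-1. Its log2 fold of -0.37 was close to the -0.40 of pkac-1, and both were near the median gene. The Gβ-like gene cpc-2 (NCU05810), whose product belongs to the RACK1 family of ribosome-associated proteins, stood at 2500 and 1320 RPKM, a log2 fold of -0.92. It had the opposite sign to gnb-1. The small GTPase genes ras-1 (NCU08823, bd in the gene table) and krev-1 (NCU02167) stood at 114 and 179 RPKM and at 47.2 and 67.6 RPKM. Their log2 folds of 0.65 and 0.51 lay within the range of the subunit genes.

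The receptor genes measured did not share a direction. Of 47 receptor symbols 8 matched a gene with a value. Of these, 7 had a mean of at least 1 RPKM, and 3 reached 10 RPKM in the higher library. Log2 folds of the 7 ran from -1.48 for gpr-5 to 1.02 for gpr-2 (NCU04626, 3.76 and 8.66 RPKM), with a median of -0.27, near the median gene. The intervals of the log2 ratio were -2.17 to -1.22 for gpr-5 and 0.49 to 1.9 for gpr-2. The opsin gene nop-1 (NCU10055) stood at 1.80 RPKM in the wild-type library and 0.865 RPKM in Δpp-1, about 15 and 8 reads. Its interval, from -2.6 to 0.17, included 0. The gene gpr-1 was listed at 0 in both libraries.

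Conidial marker genes also differed between the libraries. Of 13 markers 12 had a value, with a summed level of 231 RPKM in the wild-type library and 495 RPKM in Δpp-1. Most of it came from the 3 carotenoid genes al-1, al-2 and al-3, with 143 and 312 RPKM, of which al-1 (NCU00552) stood at 41.1 and 187 RPKM, and the other 9 summed to 87.9 and 183 RPKM. Of the 8 that reached 10 RPKM in either library, 4 were higher and 0 lower by at least 2-fold (2.73% and 6.98% over all genes), and over all 12 log2 folds ran from -0.76 to 2.56. The spore gene con-10 (NCU07325) stood at 11.3 and 71.3 RPKM, while eas (NCU08457), for the hydrophobin that coats conidia, stood at 9.55 and 29.3 RPKM. The other direction was seen for 5 of the 12, acon-3 (-0.76), con-8 (-0.23), ccg-1 (-0.11), rca-1 (-0.11) and fl (-0.07), all of which had log2 folds below 0 and of which only acon-3 lay below the median gene. None of the defining markers con-10, con-6 and eas was at 0 in either library, while con-13 was listed at 0 in the wild type. The part of these marker transcripts in the values of the subunit genes was not tested.

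**Figure D5:**
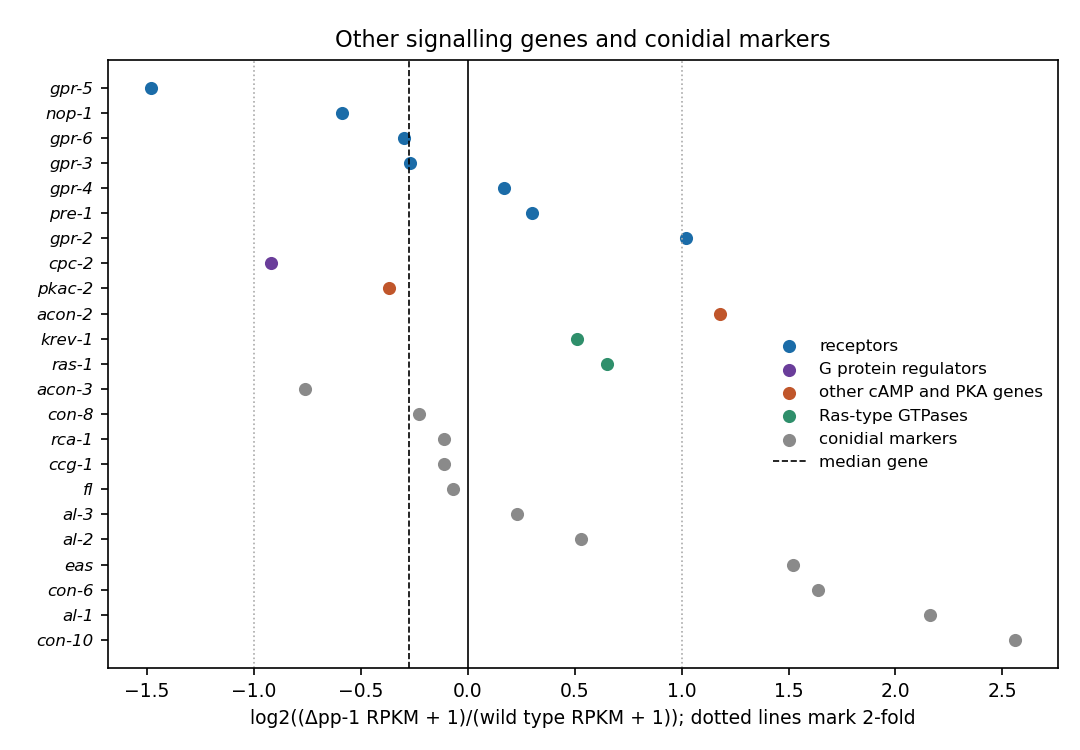
Log2 fold after adding 1 RPKM for the other signalling genes and the conidial markers with a mean of at least 1 RPKM, by list. The dashed line is the median gene and the dotted lines mark 2-fold; acon-2 lies at 1.18 and gpr-5 at -1.48, and con-10, at 2.56, is the highest point.

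Genes next to the members were also compared, since the protocol names no step that marks strand, and without one reads of overlapping genes are not told apart. Of the 18 genes next to the 9 members in assembly NC12, 13 had a value, with log2 folds from -1.38 to 0.59. The genes on either side of gng-1, NCU00040 and NCU00042, stood at 212 and 23.5 RPKM in the wild-type library and at 109 and 16 RPKM in Δpp-1, lower where gng-1 was higher. The neighbour of gna-2 with a value, NCU06730, was at 0.509 RPKM in Δpp-1 and listed at 0 in the other library. The lowest was NCU06239 beside pkac-1, at 5.77 and 1.59 RPKM, a log2 fold of -1.38. Spans overlapped for 1 of the 18, the neighbour of mcb given above.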

How the data were processed

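Each library came as 1 table of gene identifiers and RPKM values, a unit given per the file headers and computed by the authors. TopHat and Cufflinks are listed, with no version or role, per the submitters' processing notes. The genome build is not given in the sources used here, nor is the annotation, and the library protocol in the labels names no step that marks strand. Each table had 8802 lines for 8564 genes, and repeated genes, which carried equal values, were counted once. The RPKM values were not rescaled.

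The members and gene lists were chosen with earlier results of these data known. Genes named are the 9 members, pp-1, con-10 and eas, and, from the list of other pathway genes, those past 2-fold that reached 10 RPKM in either library and the 4 smallest and 4 largest log2 folds at a mean of at least 1 RPKM. gpr-1, the conidial markers other than con-10, con-6 and eas, the neighbouring genes and some within-library ratios were added after values had been seen. Identifiers were matched to RefSeq's gene table of assembly NC12 for symbols, spans and neighbours (8294 of 8564 matched).

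RPKM multiplied by span in kilobases piled up at whole multiples of 0.127 in the wild type and 0.107 in Δpp-1, taken as the worth of 1 read. The lowest multiple seen was 2, with 6 and 10 genes, and 0 genes lay midway between multiples. Whether 1 read is worth 1 or 2 such steps was not settled, and both were tried for the ratios of the members between strains. Of 800 genes under 1.5 RPKM and above 0 in both libraries, 100 had the ratio of these steps to within 0.001 on the log2 scale. Reads per gene were put at 50% of span, except for gna-3 and ric8. Lengths that gave whole reads in both libraries were found for 8 of the 9 genes, and these 2 were the ones for which rounding alone would give under 0.05 such lengths (0.0335 and 0.0282). The shortest length that gave whole reads for gna-3, 1071 bases, is 30.8% of its span, so 30% was tried too. Intervals of a ratio are exact (Clopper-Pearson), intervals of a level are exact Poisson and those of a change in a ratio use a normal approximation on the log scale. All cover counting error at the 95% level only, and PCR copies are not independent molecules. Scripts used Python 3.11.15, numpy 2.4.6, pandas 2.3.3 and scipy 1.17.1 and were tested on simulated data.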

Additional observations from a re-analysis of the deposited data

How the results depend on the processing

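With 1 library per strain no replicate could be left out. No paired analysis was possible because there was a single pair of libraries. All 9 members kept the sign of their log2 fold under the 5 other pseudocounts and scalings. All 15 pairs kept the subunit gene above the gene of the cAMP and PKA arm. A pseudocount cannot turn a sign, and scaling a whole library shifts all log2 folds by nearly the same amount. The scalings could therefore hardly change the order within a pair. Since they raised Δpp-1, only pkac-1 could have turned sign, and it stood at -0.15 (median), -0.16 (upper quartile) and -0.01 (sum). The other scalings raise Δpp-1 relative to the wild type, by 0.25 (median), 0.24 (upper quartile) and 0.39 (sum of 1000000) on the log2 scale for the median gene. The subunit median of 0.62 became 0.88, 0.87 and 1.02, and the cAMP and PKA median of 0.09 became 0.34, 0.34 and 0.48, in that order. With members left out in turn, the subunit median ran from 0.53 to 0.68. The sign of the cAMP and PKA median rests on its members, at -0.16 without cr-1, -0.12 without mcb and 0.13 without pkac-1. The difference of medians ran from 0.44 to 0.78.

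Members at least 2-fold higher numbered 2 with median scaling, 3 with the sum of 1000000, 0 with a pseudocount of 5 and 3 at 1.5-fold. Against 132 higher and 337 lower genes in all (71.9% of them lower), there were 210 and 219 (51.0%) under median scaling, 208 and 220 (51.4%) with the upper quartile, 288 and 197 (40.6%) with the sum, 295 and 1125 at 1.5-fold, 252 and 521 with no minimum, and 67 and 179 at 30 RPKM. With reads from 30% of span, the intervals of gna-1, gna-2, gna-3, gnb-1, gng-1 and pkac-1 still lay on 1 side of 0, while that of cr-1 began at 0. No share over all genes was counted to set beside this. With 2 steps to a read, those of gna-3 and cr-1 included 0, as did those of ric8 and mcb. The summed level of the cAMP and PKA genes had a log2 ratio of -0.06 as deposited, and 0.20 (median), 0.19 (upper quartile) and 0.34 (sum). These last 3 settings on intervals and sums were chosen after seeing the data.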
